A study of Homo sapiens with 11 samples.

Results

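The response to decitabine (DAC) was followed in HCT116 cells that had also received an siRNA against Staufen1 (siStau1). Every gene of the authors' deposited expression table was compared between siStau1 cells given DAC and siStau1 cells given the solvent DMSO. These are 4 of the 11 libraries of the series, 2 in each group, and the table lists 58699 genes, of which the authors tested 16979 in this comparison. HCT116 is an established human colorectal carcinoma line. Decitabine was used at 500 nM for 5 days, and RNA was read as ribosome-depleted, strand-marked total RNA. The matching pair of groups, used here only for values set side by side, carried an siRNA against luciferase (siLuc), a sequence absent from human cells, with the same DAC or DMSO treatment.

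Decitabine is a cytidine analogue that cells phosphorylate and build into DNA, where it traps the maintenance DNA methyltransferase DNMT1, so that methylation of CpG dinucleotides is lost as cells divide. Genes held silent by promoter methylation, among them germline genes normally read only in the testis or ovary, can then be transcribed. Endogenous retroviral elements can be transcribed as well, and double-stranded RNA from them can be sensed by RIG-I-like receptors, which leads to interferon production and to the induction of interferon-stimulated genes. Staufen1 is a double-stranded RNA-binding protein with roles in RNA transport, decay and stability.

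The table holds 1 FPKM value per group (fragments counted per kilobase of transcript, scaled to the mapped fragments of the library), made by the authors from both libraries, and no value per library. No spread between libraries can therefore be shown, the sequencing depth is unknown, and every statement that a gene rose or fell rests on the authors' own test, at a q-value under 0.05. The labels do not say whether the libraries of a group came from separate cultures. The targeted gene was checked first. STAU1 was listed at 30.0 FPKM with DMSO and 27.1 with DAC in the groups labelled siStau1, against 35.5 and 33.7 in those labelled siLuc, or 84.4% and 80.4% of the siLuc values. In the authors' deposited table the siRNA groups differed with q-values of 0.767 and 0.685, so a knockdown is not called at the level of this gene value. The FPKM values of all genes summed to 967548 with DMSO and 1491060 with DAC, and RN7SK, SNORD3A and RPPH1 together made up 26.6% and 41.1% of those sums. Scaling both groups to the same sum lowers log2 ratios by 0.62, or by less where the pseudocount described below weighs in at low FPKM. List medians whose direction flips with it are named below.

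More genes were called higher than lower with DAC. In their table the authors called 1266 of the 16979 tested genes (7.46%), 775 higher (4.56%) and 491 lower (2.89%) with DAC. The unadjusted Cuffdiff p-value was under 0.05 for 3228 of the 16979. A log2 ratio is given throughout as log2 of (DAC FPKM + 0.1) over (DMSO FPKM + 0.1), which understates the change of low genes. Its median was 0.11 over all tested genes. Among genes that reached 1 FPKM under each treatment, 353 were called higher, with a median fold of 3.01, and 454 were called lower, with a median log2 ratio of -1.51. The smallest absolute log2 ratio of a called gene in that class was 0.92.

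**Figure D1:**
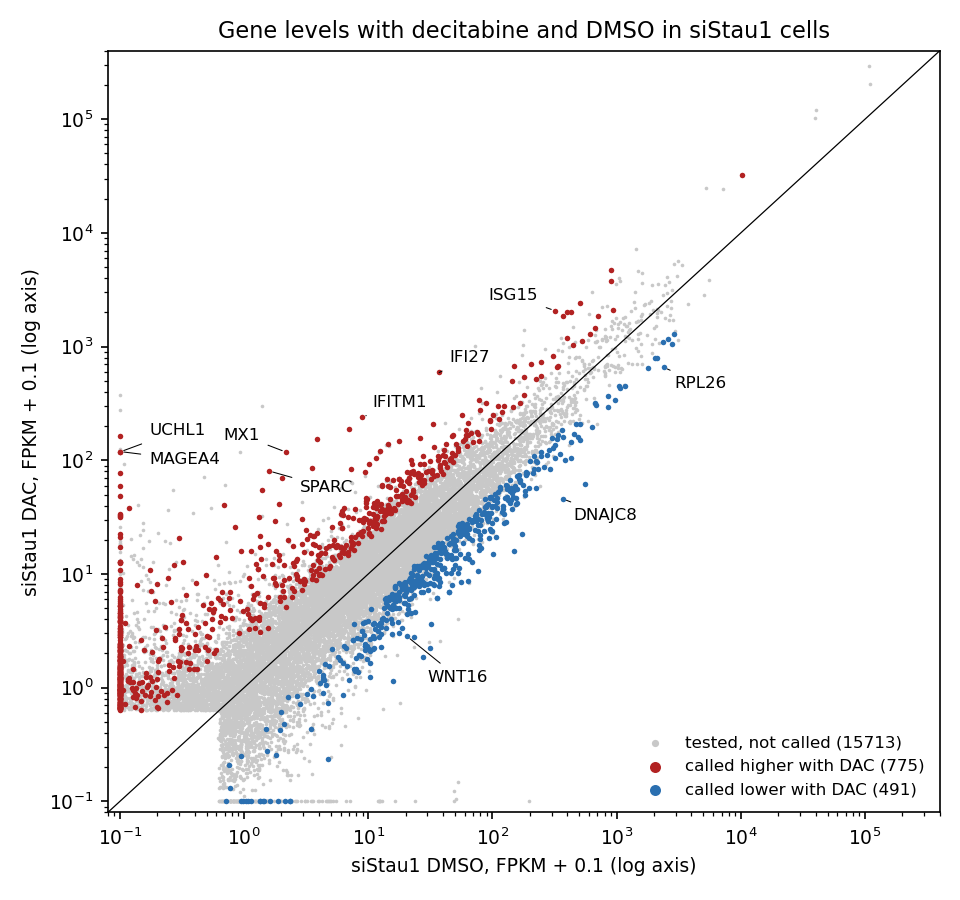
Each point is 1 of the 16979 tested genes, placed by its FPKM plus 0.1 in siStau1 DMSO (x axis, log scale) and siStau1 DAC (y axis, log scale); red marks the 775 genes called higher and blue the 491 called lower with DAC, and the line marks equal levels. The column of red points at the left edge holds genes listed at 0 with DMSO, and most blue points lie above 10 FPKM on the DMSO axis.

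The 2 directions came from different starting levels. Of 518 tested genes listed at 0 with DMSO, 286 were called higher, and of 431 between 0 and 0.1 FPKM, 45 were. None in these 2 classes was called lower, but that direction was fixed in advance. A gene at 0 cannot fall and is tested only through its DAC reads, and one under 0.1 has almost no room to fall. Among genes above 10 FPKM with DMSO the balance turned: 156 higher against 309 lower between 10 and 100 FPKM, and 33 against 105 above 100 FPKM. At the bottom the share called differed with whether the DMSO value was exactly 0. Among genes that reached 1 FPKM with DAC, 176 of 289 listed at 0 with DMSO were called, against 24 of 205 listed above 0 but under 0.1. TKTL1, a transketolase-like gene often grouped with the cancer-testis antigens, is an example: it was at 0.00855 FPKM with DMSO and 91.8 with DAC and was not called, and the authors' deposited table gives it a q-value of 0.562. A gene that misses the call below is therefore described by its levels and is not said to be unaffected.

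Interferon signalling was examined in the order of its steps. None of the 3 interferon genes that the authors tested was called by Cuffdiff, or had an unadjusted p-value under 0.05. The lambda interferons, which act mainly on epithelial cells, were at 0.0589 FPKM with DMSO and 2.71 with DAC for IFNL1, 0.0356 and 2.17 for IFNL2, and 0.124 and 1.83 for IFNL3. All 3 were near 0 with DMSO and between 1.83 and 2.71 FPKM with DAC, with reads of IFNL2 and IFNL3 uncertain because their sequences are nearly identical. IFNB1, the type I interferon of non-immune cells, was listed at 0 with DMSO and at 0.216 FPKM with DAC and was not tested by the authors. In siLuc cells the same genes already had 1.99 to 3.97 FPKM with DMSO, IFNB1 (2.63) included.

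Of 21 receptors and signal carriers, 3 rose and none fell. Over all tested genes 4.56% were called higher and 2.89% lower, and the count of each list below is to be read beside those shares. IRF7, the transcription factor that amplifies interferon production, rose from 6.11 to 32.9 FPKM. STAT2, the subunit that links the receptor to the interferon-stimulated gene factor, rose from 13.3 to 32.2, and USP18, which removes ISG15 and dampens the receptor, rose from 6.78 to 31.4. Each of these 3 is known to be interferon-inducible itself. The receptors had no call: IFNAR1 was at 7.05 and 7.13 FPKM, IFNLR1 at 2.43 and 3.43. Over the 21 genes the log2 ratio had a median of 0.46 against 0.11 over all tested genes, and it turned to -0.16 when both groups were scaled to the same FPKM sum.

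Of 14 tested sensors and adaptors of double-stranded RNA, 3 rose, against 4.56% called higher over all tested genes, and none fell. DDX58, which encodes RIG-I, rose from 20.2 to 53.5 FPKM, and IFIH1, which encodes the long double-stranded RNA sensor MDA5, rose from 12.9 to 29.1. NLRP1, an inflammasome sensor, rose from 0.408 to 2.77. The adaptor MAVS, through which RIG-I and MDA5 signal, was at 8.49 and 8.12 FPKM, the kinase PKR (EIF2AK2) at 60.2 and 56.3, and TLR3, the endosomal sensor, at 3.45 and 3.01, none of them called. The median of the list was 0.69.

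Interferon-stimulated effector genes gave the most rises of the lists examined. Of 50 genes, all of them tested, 26 rose, none fell and 49 had a ratio above 0, or 45 with equal sums. The median log2 ratio of the 50 was 2.05. MX1, a GTPase that blocks viral ribonucleoproteins, rose from 2.08 to 118 FPKM, a fold of 56.7, and had the largest log2 ratio of the effectors that passed 1 FPKM in each group. IFITM1, a membrane protein that restricts virus entry, rose from 8.8 to 239 FPKM, and IFI27, a small interferon-induced mitochondrial protein, from 37.2 to 592. BST2, which tethers budding virus at the cell surface, rose from 11.3 to 105 FPKM. ISG15, a ubiquitin-like modifier, rose from 320.0 to 2065 FPKM and had the second largest gain in FPKM of all called protein-coding genes, after KRT18. Its conjugating enzyme UBE2L6 rose from 27.2 to 60.5 as well. Of the 2',5'-oligoadenylate synthetases, which activate RNase L, OAS2 rose from 0.0735 to 10.7 and OAS3 from 17.6 to 68.3, while OAS1, at 14.9 and 64.0, was given a q-value of 0.273 by the authors' deposited table.

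Other effectors with large differences were not called. XAF1, an inhibitor of an apoptosis inhibitor, was at 0.00595 FPKM with DMSO and 10.1 with DAC. RSAD2, which encodes the antiviral enzyme viperin, was at 1.0 and 7.75, and IFIT3, an antiviral partner of IFIT1, at 10.3 and 47.6. IFIT1, which binds viral RNA ends, was at 79.4 and 125, a much smaller ratio. The 1 member with a ratio below 0 was DDX60L, at 47.4 and 44.8 FPKM.

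The siLuc values set beside these show where the siStau1 response started from. In the DMSO groups 48 of the 50 effectors had a lower FPKM in siStau1 than in siLuc cells, and in the DAC groups 41 of 50 did. The 48 include all 26 that rose, which were chosen by a call that itself uses the siStau1 DMSO value. Summed FPKM was also lower in siStau1 cells, at 967548 against 1129080 with DMSO and 1491060 against 1793610 with DAC. The same counts were 45 and 39 of 80 for ribosomal proteins, and 3 and 13 of 13 for mitochondrial mRNAs. Other lists were as one-sided as the effectors, with 18 and 19 of 20 for MHC class I antigen presentation and 11 and 12 of 12 for integrated stress response targets. The share over all tested genes was not counted. IFITM1 stood at 191 and 562 FPKM in siLuc DMSO and DAC, BST2 at 116 and 189, and IFI44L at 17.2 and 21.5, against 1.19 and 11.1 for IFI44L in siStau1 cells. The median FPKM of the effector list was 10.2 with DMSO and 34.8 with DAC in siStau1 cells, and 31.6 and 40.8 in siLuc cells. The log2 ratio was the larger one in siStau1 cells for 43 of the 50 genes, with a list median of 2.05 against 1.15. Whether the 2 responses differ cannot be tested without values per library.

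**Figure D2:**
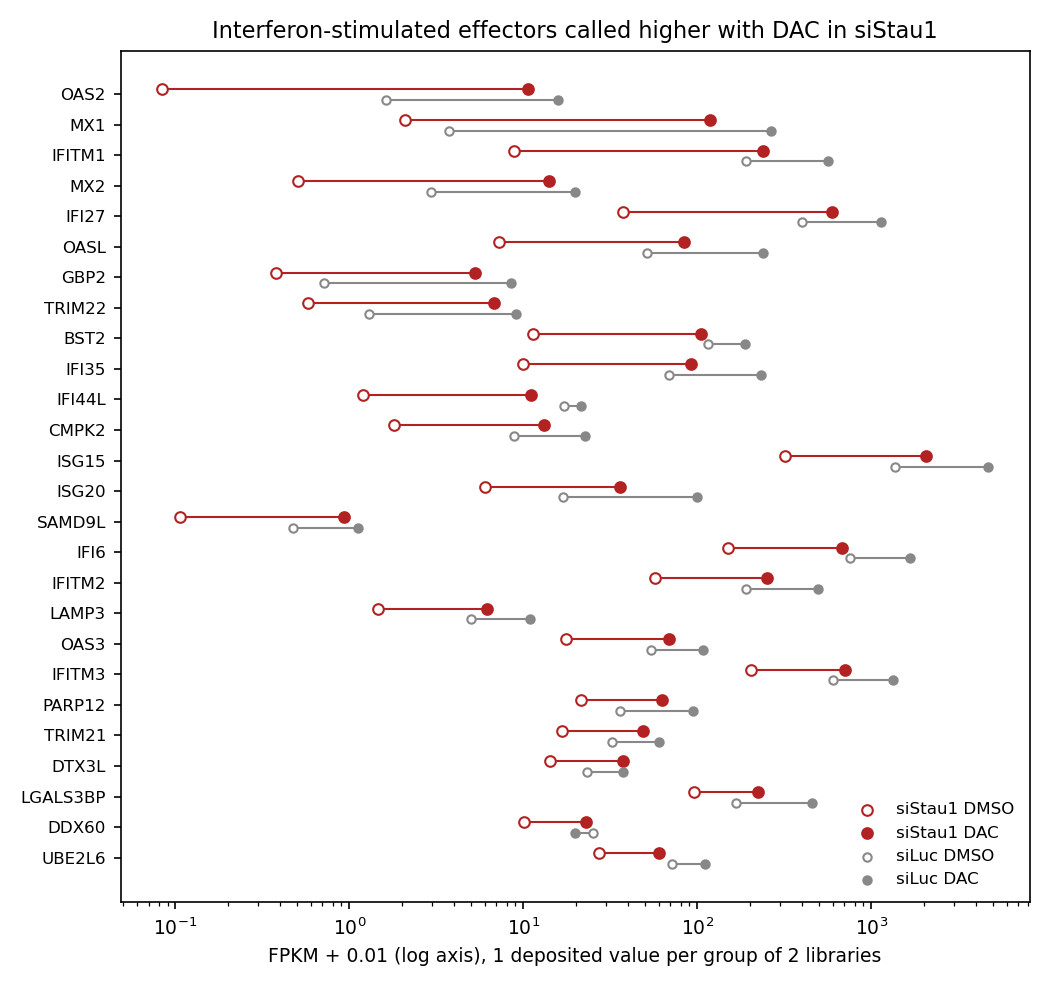
FPKM plus 0.01 (log axis) of the 26 interferon-stimulated effectors called higher with DAC in siStau1 cells, ordered by their log2 ratio; open circles are DMSO and filled circles DAC, red for siStau1 and grey for siLuc, each circle 1 deposited group value. All 26 red open circles lie left of the grey open circle of the same gene, and DDX60 is a gene whose siLuc DAC value (19.7) lies below its siLuc DMSO value (25.1).

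Promoters of these genes were searched on either strand for GAAA followed, after any 2 bases, by GAAA, which is the core shared by interferon-stimulated response elements, to which the interferon-stimulated gene factor and the IRF factors bind. The windows are RefSeq's, on GRCh38.p14, from 250 bases before to 50 bases after the gene start. Of 14896 protein-coding promoters 3.21% held the core, against 27 of the 40 effectors with a window (67.5%). All genes called higher had 7.5%, and those outside the effector list 4.56%. Of the effectors with the core 15 of 27 rose, with a median log2 ratio of 1.55, and of those without it 4 of 13 rose, with a median of 2.09. The 250 bases before the start of 4 strongly raised effectors are shown 5′ to 3′ along the gene's strand, with the core in capitals. They are IFITM1 (chr11:313790-314039, plus strand), ISG15 (chr1:1013247-1013496, plus strand), IFI27 (chr14:94110486-94110735, plus strand) and IFI44L (chr1:78620198-78620447, plus strand).
IFITM1: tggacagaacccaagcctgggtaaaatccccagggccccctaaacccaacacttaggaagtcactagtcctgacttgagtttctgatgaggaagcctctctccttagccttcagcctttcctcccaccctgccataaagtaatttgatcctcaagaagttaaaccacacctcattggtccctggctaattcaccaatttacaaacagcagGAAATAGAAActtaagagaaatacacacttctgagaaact
ISG15: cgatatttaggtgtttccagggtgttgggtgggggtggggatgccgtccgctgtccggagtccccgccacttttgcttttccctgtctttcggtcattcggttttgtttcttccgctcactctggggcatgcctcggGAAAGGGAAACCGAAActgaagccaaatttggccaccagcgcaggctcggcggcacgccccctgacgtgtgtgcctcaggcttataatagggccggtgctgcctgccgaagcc
IFI27: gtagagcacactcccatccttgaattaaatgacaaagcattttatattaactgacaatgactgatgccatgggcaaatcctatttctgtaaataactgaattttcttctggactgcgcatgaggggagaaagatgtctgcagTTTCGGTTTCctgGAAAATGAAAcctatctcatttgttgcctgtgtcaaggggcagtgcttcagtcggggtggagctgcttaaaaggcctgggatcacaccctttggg
IFI44L: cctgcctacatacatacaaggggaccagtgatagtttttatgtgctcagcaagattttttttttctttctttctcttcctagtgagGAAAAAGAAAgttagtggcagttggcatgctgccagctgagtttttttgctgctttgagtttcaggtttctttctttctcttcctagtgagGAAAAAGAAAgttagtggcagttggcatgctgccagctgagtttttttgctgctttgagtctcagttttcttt
In IFITM1 the single match begins 40 bases before the start. ISG15 holds 2 overlapping matches, which begin 113 and 107 bases before the start, and IFI27 holds 2 matches in opposite directions, at 108 and 95 bases. IFI44L holds 2, at 164 and 73 bases, and its 300-base window has no CpG at all. The median ratio of observed to expected CpG was 0.394 over the effector promoters and 0.768 over all protein-coding promoters.

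Antigen presentation by MHC class I moved in the same direction. Of 20 genes, all tested, 5 rose, against 4.56% called higher over all tested genes. None fell, and the median log2 ratio was 1.12. TAP1, a subunit of the pump that carries peptides into the endoplasmic reticulum, rose from 15.7 to 66.7 FPKM. TAPBP, which encodes tapasin, rose from 7.24 to 18.0, and its relative TAPBPL from 0.0427 to 0.989. The heavy chain HLA-E rose too, from 43.0 to 86.7, with the caution that reads of the HLA genes can be shared between them. PSMB8, an immunoproteasome subunit, was at 0.519 and 11.8 FPKM without a call. The light chain B2M, at 799.6 and 675, was among the 2 members with a ratio below 0. With equal sums 14 of the 20 had a ratio above 0. The response element core was found in 9 of 16 promoters of this list.

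Chemokines and targets of NF-kB showed 7 rises among 19 tested genes and no fall, with a median of 2.23, or 1.36 with a pseudocount of 1. CXCL8, a neutrophil chemokine, rose from 2.14 to 19.9 FPKM, and the related CXCL1 from 1.72 to 15.8. IL32, a proinflammatory cytokine, rose from 2.82 to 30.1, and RELB, an NF-kB subunit, from 2.39 to 17.4. The feedback inhibitors of the pathway rose as well, NFKBIA from 36.1 to 109 and TNFAIP3 from 1.35 to 5.03. The chemokines that attract T cells were not called: CXCL10 was at 0.0202 and 0.695 and CCL5 at 0.741 and 3.84 FPKM. Of 14 tested factors that restrict retroelements, APOBEC3G (0.677 to 4.71) and ZC3HAV1 (19.3 to 44.9), which encodes the antiviral protein ZAP, rose; the list median of 0.40 turned to -0.21 with equal sums.

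Genes derived from endogenous retroviruses are a small list, and its 10 loci are not the repeats themselves. ERVH48-1, which encodes the envelope-derived suppressyn, was listed at 0 with DMSO and rose to 1.21 FPKM. ERVW-1, the envelope gene known as syncytin-1, was at 0.00645 and 0.597 and was not called, and ERVK3-1 was at 27.8 and 48.1. Of 7 tested members 6 had a ratio above 0, or 5 with equal sums, and the median was 0.79.

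Cancer-testis antigens, proteins of the male germ line that tumours can express, had the highest list median. Of 45 genes 28 were listed at 0 with DMSO and 6 with DAC, and 24 moved from under 0.1 to at least 1 FPKM. The authors tested 32, of which 18 rose and none fell, and their median log2 ratio was 5.39, or 3.26 with a pseudocount of 1. Taken over all 45 members, tested or not, the median was 4.55. A gene listed at 0 with DMSO can enter the tested set only through its DAC reads, so medians and call counts over tested members of silent lists lean upward. MAGEA4 was listed at 0 with DMSO and at 119 FPKM with DAC, GAGE2A at 0 and 48.5, PAGE2B at 0 and 33.5, PAGE1 at 0 and 32.5, and MAGEA12 at 0 and 12.4, all called. A fold cannot be given against a value of 0. Members already expressed with DMSO behaved otherwise: PRAME rose from 23.7 to 47.6, MAGEA3 was at 29.9 and 51.2, and MAGEB2 at 129 and 101, the last 2 without a call. GAGE, PAGE, SSX and MAGEA genes include near-identical copies, so reads may be split or shared among them. In siLuc DAC, MAGEA4 was at 97.5 FPKM, GAGE2A at 71.6 and PAGE1 at 57.5, the first below and the other two above their siStau1 DAC values. The median over the 32 tested genes was 12.5 FPKM in siStau1 DAC against 14.1 for siLuc, and this difference was not tested.

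Genes of meiosis and the germ line followed, with 13 rises among 29 tested and no fall, and a median of 4.12, or 1.4 with a pseudocount of 1 and 6.5 with one of 0.01. Taken over all 40 members, tested or not, the median was 3.25. DAZL, an RNA-binding protein needed for germ cell development, was listed at 0 with DMSO and rose to 12.6 FPKM. TDRD1, a scaffold of the piRNA pathway, rose from 0 to 6.16, DDX4, the germ cell helicase known as VASA, from 0 to 2.06, and BRDT, the testis bromodomain protein, from 0 to 3.39. The meiotic cohesin subunit STAG3 rose from 0.262 to 2.2, and TEX11, a meiotic crossover protein, from 0.242 to 6.38. MAEL and TDRD12, further piRNA pathway genes, reached 14.2 and 9.7 FPKM from 0.0241 and 0.061, without a call. Some members stayed silent: SPO11, which makes the breaks of meiotic recombination, and PIWIL1 were listed at 0 in both groups, and GTSF1, already at 249 FPKM with DMSO, was at 146 with DAC.

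A list of genes known for promoter methylation in colon tumours divided. Of 41 genes 21 were tested, 5 rose and 2 fell, and only 3 moved from under 0.1 to at least 1 FPKM. UCHL1, a neuronal ubiquitin hydrolase, was listed at 0 with DMSO and rose to 118 FPKM. VIM, the mesenchymal filament vimentin, rose from 1.21 to 31.4, SPARC, a matrix glycoprotein, from 1.48 to 80.6, and CHFR, a mitotic checkpoint ligase, from 0 to 1.87. SPARC carries the same deposited DMSO value in both siRNA arms. HLTF and RASSF2 fell, from 40.9 to 17.2 and from 5.03 to 2.1 FPKM. Most of the secreted Wnt antagonists on the list stayed low: with DAC SFRP1 was at 0.562 FPKM, SFRP2 at 0.0135, WIF1 at 0.0366 and SFRP4 was listed at 0.

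Imprinted genes, read from 1 parental copy under the control of methylation, gave 3 rises among 15 tested, against 4.56% called higher over all tested genes. The non-coding RNA MEG3 rose from 0.0912 to 5.67 FPKM, the retrotransposon-derived PEG10 from 2.58 to 9.58, and PHLDA2, a growth restraint of the placenta, from 21.1 to 69.3. H19, a non-coding RNA of the IGF2 locus, had a large difference without a call, at 0.603 and 60.7 FPKM, and IGF2 was at 0.50 and 1.4. GNAS and MEST had no call, at 221 and 223 and at 18.4 and 17.4.

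The switch from silent to expressed was then counted over all protein-coding genes. Of 6588 genes under 0.1 FPKM with DMSO, 328 reached at least 1 FPKM with DAC (4.98%), and 154 of them were called. In siLuc DAC 286 of the 328 were also at 1 FPKM or more. The reverse, from at least 1 FPKM with DMSO to under 0.1 with DAC, was seen for 15 genes. With DAC 65 of the silent genes passed 5 FPKM and 35 passed 10 FPKM. The X chromosome stood highest, with 58 of 425 silent genes (13.6%), followed by chromosome 19 with 40 of 486 (8.23%); chromosome 18 had 1 of 84. Adjacent genes were switched on together in 4 runs of at least 3. The longest lies on chromosome 6 (GRCh38, chr6:73353062-73452276) and holds the germ line and early embryo genes DPPA5, KHDC3L and OOEP, the cancer-testis helicase DDX43 and CGAS, the cytosolic DNA sensor. With DMSO the first 4 were listed at 0 and CGAS at 0.0306 FPKM; with DAC they were at 1.35, 3.99, 9.98, 3.28 and 1.5 FPKM. Of these 5, DPPA5 and KHDC3L were called.

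**Figure D3:**
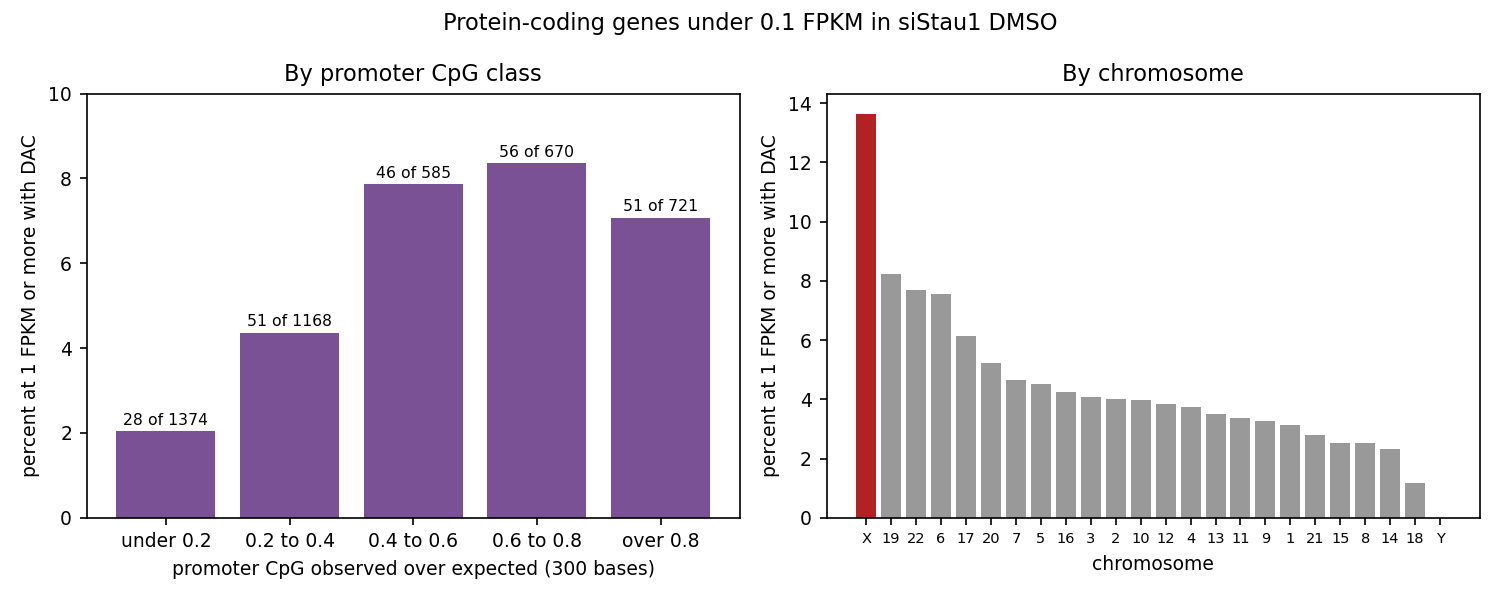
Percent of protein-coding genes under 0.1 FPKM in siStau1 DMSO that reached at least 1 FPKM in siStau1 DAC, by the observed over expected CpG ratio of the RefSeq promoter (left, with counts above the bars) and by chromosome (right, X in red). The share is 2.04% in the class with the fewest CpG and 8.36% in the class from 0.6 to 0.8, and the X chromosome is at 13.6%.

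The CpG content of promoters differed between genes that were switched on and those that were not. The median observed over expected CpG ratio was 0.534 for the 232 switched-on genes with a promoter window and 0.296 for 3177 genes under 0.1 FPKM in both groups. The share switched on was 2.04% where the ratio was under 0.2, 4.37% from 0.2 to 0.4, 7.86% from 0.4 to 0.6, 8.36% from 0.6 to 0.8 and 7.07% above 0.8. Called genes as a whole showed medians of 0.688 for those higher and 0.867 for those lower, against 0.844 for tested genes without a call. These medians differ with the starting level. Genes called higher had 0.523 where DMSO was under 0.1 FPKM and 0.770 where it was at least 1. Genes without a call at 1 FPKM or more with DMSO had 0.854. Germ line lists differed among themselves, at 0.757 for the meiosis genes and 0.483 for the cancer-testis antigens. To show both kinds, the 250 bases before the start are given for 2 CpG-rich promoters, UCHL1 (chr4:41256678-41256927, plus strand) and DAZL (chr3:16605424-16605673, minus strand), and for 2 of lower CpG content, MAGEA8 (chrX:149880933-149881182, plus strand), which was listed at 0 with DMSO and rose to 3.73 FPKM, and SPARC (chr5:151686916-151687165, minus strand). The sequences are RefSeq's on GRCh38.p14, 5′ to 3′ along the gene's strand, with each CpG in capitals.
UCHL1: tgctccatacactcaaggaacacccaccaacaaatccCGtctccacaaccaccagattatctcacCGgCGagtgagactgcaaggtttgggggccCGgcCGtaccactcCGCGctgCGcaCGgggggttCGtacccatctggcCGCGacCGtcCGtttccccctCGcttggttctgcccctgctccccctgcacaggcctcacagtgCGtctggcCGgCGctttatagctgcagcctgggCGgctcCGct
DAZL: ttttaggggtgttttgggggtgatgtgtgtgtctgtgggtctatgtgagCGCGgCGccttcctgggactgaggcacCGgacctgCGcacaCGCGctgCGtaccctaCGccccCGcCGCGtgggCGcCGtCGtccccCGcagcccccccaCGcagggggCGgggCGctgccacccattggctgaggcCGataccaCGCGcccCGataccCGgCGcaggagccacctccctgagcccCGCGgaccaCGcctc
MAGEA8: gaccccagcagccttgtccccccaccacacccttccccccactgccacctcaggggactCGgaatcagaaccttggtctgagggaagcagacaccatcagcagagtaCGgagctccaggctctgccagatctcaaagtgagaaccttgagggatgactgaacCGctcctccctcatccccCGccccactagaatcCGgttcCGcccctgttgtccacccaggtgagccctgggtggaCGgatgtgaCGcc
SPARC: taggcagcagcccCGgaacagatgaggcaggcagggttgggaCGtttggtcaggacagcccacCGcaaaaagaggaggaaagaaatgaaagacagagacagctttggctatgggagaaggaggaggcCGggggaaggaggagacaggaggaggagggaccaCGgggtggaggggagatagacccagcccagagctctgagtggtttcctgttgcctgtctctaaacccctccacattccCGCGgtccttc
These stretches hold 20 CpG in UCHL1, 28 in DAZL, 8 in MAGEA8 and 7 in SPARC, and the ratio over the 300-base window is 0.870, 0.862, 0.408 and 0.401. All 4 genes rose. No methylation was measured in these libraries, so the methylation of these sites in the cells was not examined.

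Keratins, the intermediate filaments of epithelia, gave 12 rises among 25 tested and no fall, with a median of 2.67, or 1.28 with a pseudocount of 1. Taken over all 55 keratins, tested or not, the median was 0.96. KRT18, a filament of simple epithelia, had the largest gain in FPKM of all called protein-coding genes, from 509 to 2415. Its partner KRT8 was at 834 and 2268 and was not called. KRT19 rose from 449 to 1041, KRT20, a marker of differentiated colon epithelium, from 3.09 to 20.2, KRT7 from 1.82 to 41.2 and KRT17, a stress keratin of stratified epithelia, from 0.585 to 40.3. Keratins have many processed pseudogenes, which may share reads with them.

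Markers of cell types other than colon epithelium were examined next. Of the 9 leukocyte markers, whose FPKM summed to 0.946 with DMSO and 14.3 with DAC, CD3D rose from 0 to 4.11 and PTPRC, the leukocyte-defining CD45, from 0 to 0.82; CD68 made up most of the rest, at 0.62 and 6.6 FPKM without a call. Of the 10 fibroblast markers, which summed to 9.03 and 17.2 FPKM, COL1A1 rose from 0.826 to 5.65 and THY1 from 0.0182 to 2.22, with COL1A2 at 0.242 FPKM with DAC. FN1 and ACTA2, the other tested fibroblast markers, were not called, and 1 of the 4 tested had a ratio below 0. Most of the DMSO sum lay outside COL1A1 and THY1. Of the 5 endothelial markers VWF rose from 0.0604 to 0.767 FPKM. None of 3 tested neural markers was called or had an unadjusted p-value under 0.05, and their median of 0.50 turned to -0.11 with equal sums. The 6 listed neural markers summed to 67.4 FPKM with DMSO and 149.8 with DAC, nearly all of it TUBB3, a neuronal tubulin that carcinoma lines can also express, at 62.6 and 144 FPKM; ELAVL4, which encodes a neuronal RNA-binding protein, was at 0.0138 FPKM with DMSO and listed at 0 with DAC. The part of other cell types in the results was not tested, and in bulk samples fewer cells of a type and less RNA per cell cannot be told apart. Of 9 tested colon epithelium markers 4 rose, CDX1 and the keratins KRT18, KRT19 and KRT20, and none fell. EPCAM was at 338 and 179 FPKM and CDH1, which encodes E-cadherin, at 16.2 and 25.9, while VIL1, MUC2 and CEACAM5 stayed under 1 FPKM in both groups. CDX1, an intestinal homeobox gene, rose from 0 to 0.791. PRF1, the pore-forming perforin of cytotoxic lymphocytes, rose from 1.94 to 70.3 FPKM and was among the 5 largest rises of protein-coding genes that passed 1 FPKM in each group.

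**Figure D4:**
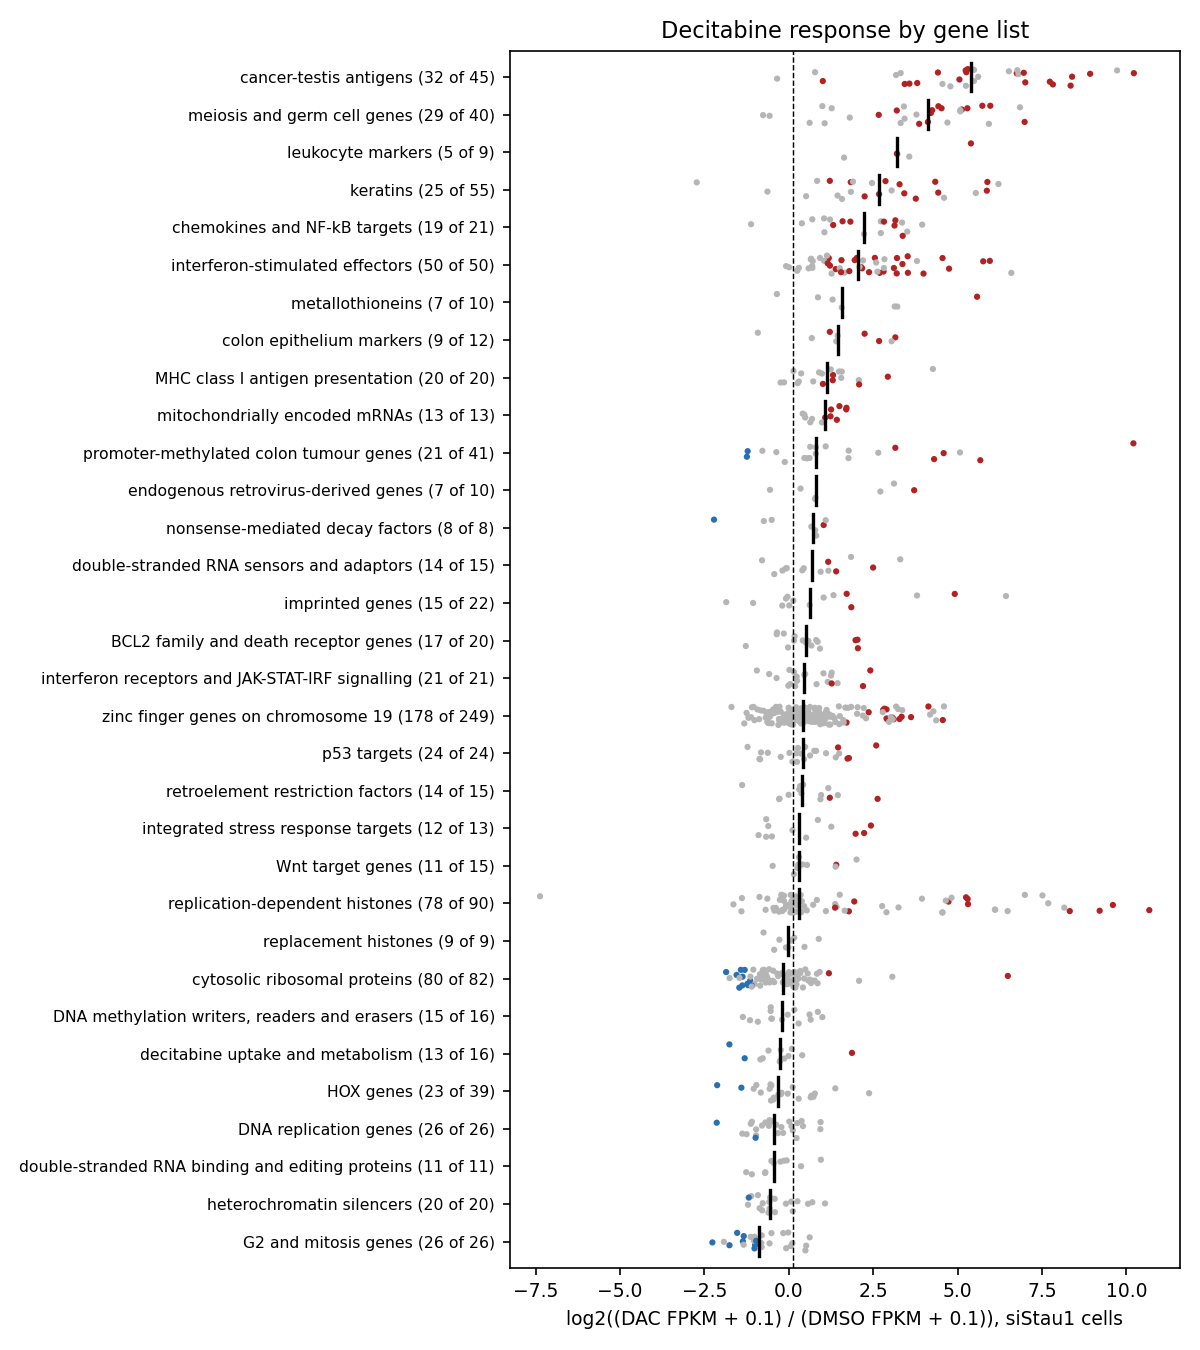
Log2 ratio of DAC over DMSO in siStau1 cells (x axis) for every tested gene of each list with at least 5 tested members; red points were called higher, blue called lower and grey not called, the thick bar is the list median, the dashed line the median of all tested genes (0.11), and the numbers give tested of all members. Cancer-testis antigens have the highest median (5.39) and G2 and mitosis genes the lowest (-0.89).

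The machinery that writes and reads DNA methylation showed no Cuffdiff call in either direction among 15 tested genes, of which 3 had an unadjusted p-value under 0.05. Over all tested genes 3228 of 16979 had such a p-value, and 7.46% were called. DNMT1, the enzyme that decitabine traps, was at 204 FPKM with DMSO and 79.4 with DAC, and the authors' deposited table gives it a q-value of 0.533. DNMT3B was at 8.65 and 9.7, and TET1, which oxidises methylated cytosine, at 2.16 and 0.92. Of 20 heterochromatin silencers 1 fell and none rose, and their median was -0.56. SUZ12, a subunit of Polycomb repressive complex 2, fell from 27.7 to 12.1 FPKM, and TRIM28, the corepressor of KRAB zinc finger proteins, was at 328 and 486. Of 13 tested genes of decitabine uptake and metabolism 1 rose and 2 fell, with a median of -0.26. DCK, the kinase that activates decitabine, fell from 27.9 to 8.17 FPKM, CDA, the deaminase that inactivates it, rose from 3.92 to 14.6, and RRM1, the large subunit of ribonucleotide reductase, fell from 140.1 to 56.5. The transporter SLC29A1 was at 29.4 and 24.5.

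HCT116 cells carry functional p53, and 4 of its 24 listed targets rose while none fell, against 4.56% called higher over all tested genes. CDKN1A, the cell cycle inhibitor p21, rose from 47.5 to 163 FPKM, GDF15, a stress cytokine, from 18.0 to 60.4, PLK3 from 3.48 to 21.4 and AEN, an apoptotic nuclease, from 17.4 to 48.0. MDM2, the ligase that degrades p53, was at 127 and 153, and the proapoptotic BBC3 at 4.33 and 5.95. The list median of 0.41 turned to -0.21 with equal sums. In the BCL2 family and death receptor list 3 of 17 tested genes rose: the killers BAK1 (6.05 to 25.3) and BIK (7.45 to 30.8) and the protective BCL2L1 (27.7 to 109); the median of 0.51 turned to -0.11 with equal sums. Of 12 tested integrated stress response genes ATF3 (12.9 to 60.8), PPP1R15A (14.8 to 58.6) and CHAC1 (1.17 to 6.72) rose, whereas the amino acid synthesis genes ASNS and PSAT1 were at 83.3 and 54.5 and at 53.3 and 28.6 without a call. That median of 0.31 turned to -0.31 with equal sums and to -0.05 after centring by transcript GC content.

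Mitotic genes lay on the other side. Of 26 genes of G2 and mitosis 8 fell and none rose, and the median log2 ratio was -0.89. HMMR, a spindle-associated protein, fell from 81.0 to 16.8 FPKM, DLGAP5 from 118 to 34.9, the spindle checkpoint kinase TTK from 62.0 to 21.4, CENPF, a kinetochore protein, from 74.2 to 29.3, and CDK1, the mitotic kinase, from 114 to 58.5. CCNB1, PLK1 and MKI67, equally mitotic, had no call, at 339 and 364, 41.3 and 59.0, and 37.4 and 38.9 FPKM. The 8 that fell had transcripts with a median GC content of 38.4%, against 46.7% for the other 18. Of 26 replication genes 2 fell, PCNA, the sliding clamp, from 363 to 183 and RFC1, a subunit of the clamp loader, from 124 to 28.1, and the list median was -0.43. Among all tested genes from 10 to 100 FPKM with DMSO 5.36% were called lower, and above 100 FPKM 10.2%, so the replication count is near those shares.

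The log2 ratio was graded by transcript GC content over the whole comparison. Among tested protein-coding genes that passed 1 FPKM in each group and whose transcript GC content was at most 35%, the median log2 ratio was -0.84, with 2 called higher and 28 lower of 184 genes. It was -0.04 from 45 to 50% and 0.75 from 60 to 65%, where 81 of 1162 genes were called higher and none lower. The part of GC content in the calls was not tested. With the ratios centred within 20 bins of GC content, the mitosis list had a median of -0.56 and the interferon-stimulated effectors 1.78.

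**Figure D5:**
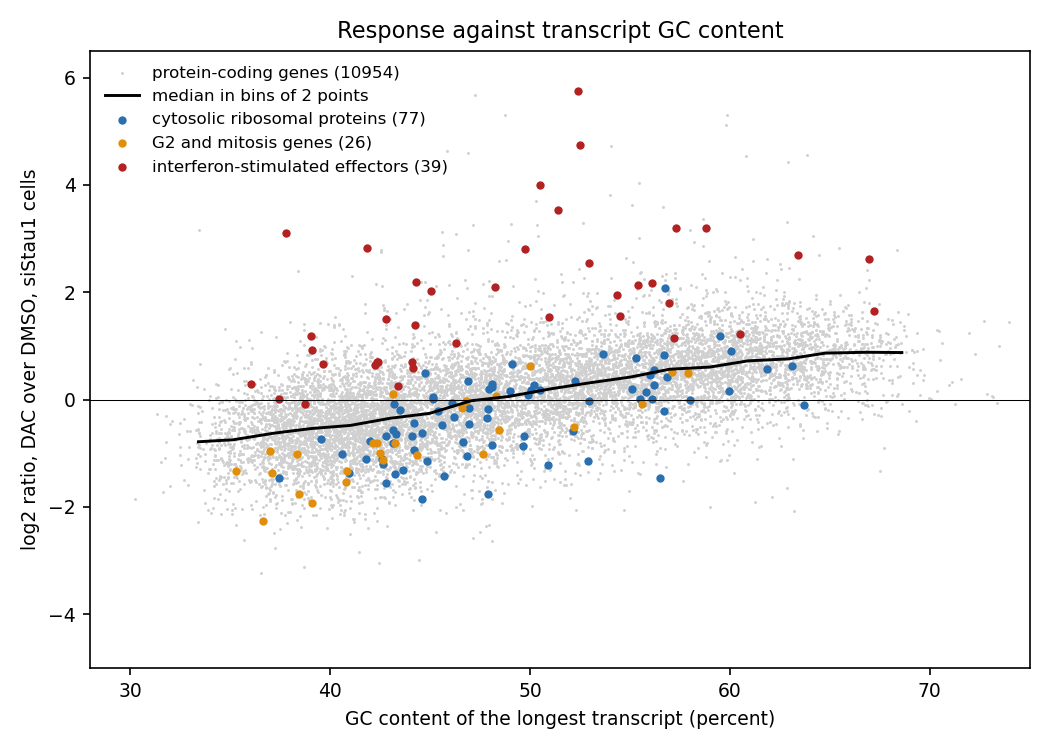
Log2 ratio of DAC over DMSO in siStau1 cells (y axis) against the GC content of the longest transcript in percent (x axis) for tested protein-coding genes that passed 1 FPKM in each group; the black line joins medians of bins of 2 percentage points, and colours mark ribosomal proteins, mitosis genes and interferon-stimulated effectors. The line climbs from below 0 at low GC content to above 0 at high GC content, and most effectors lie above it.

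Ribosomal protein genes of the cytosol had more falls than rises. Of 80 tested 11 fell and 2 rose, with a median of -0.16. Among all tested genes above 100 FPKM with DMSO 10.2% were called lower and 3.2% higher, so falls outnumbered rises there as well. The largest losses in FPKM were in RPL26, from 2387 to 658 FPKM, RPL30, from 2601 to 1176, and RPL23, from 2121 to 791. RPL39L, the testis form of RPL39, rose from 0 to 8.88. The 11 that fell had a median GC content of 43.2%, and the 66 others with at least 1 FPKM with DMSO 48.1%, in ranges that overlapped (37.4 to 52.9% and 39.5 to 63.7%); after GC centring their medians were -1.07 and -0.21. Many of these genes have processed pseudogenes that can share their reads. Processed pseudogenes as a class had 7 higher calls among 1354 tested (0.52%), against 4.56% over all tested genes. Their 38 lower calls were 2.81%, against 2.89% over all tested genes. The median log2 ratio of the class was -0.73, against 0.11 over all tested genes. NPM1, a nucleolar ribosome assembly factor, and TPT1, a translationally controlled growth protein, fell from 2785 to 1045 and from 2876 to 1299.

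Messenger RNAs encoded in mitochondria all had a ratio above 0 and 7 of 13 rose, with a median of 1.08. With equal sums 10 of the 13 had a ratio above 0. MT-ND1, a subunit of respiratory complex I, rose from 42.4 to 139 FPKM, MT-ND4 from 61.7 to 166 and MT-CYB, of complex III, from 74.6 to 178. The cytochrome oxidase subunits MT-CO1, at 1035 and 1448, and MT-CO3, at 1675 and 2302, were not called. Small nuclear and Cajal body RNAs were among the 5 largest non-coding rises of genes that passed 1 FPKM in each group, with SCARNA2 at 399.9 and 2033 and RNU6ATAC, of the minor spliceosome, at 431 and 2003. The host gene SNHG6 fell from 428 to 143.

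Replication-dependent histone genes, whose messages normally lack a poly(A) tail and are therefore visible in total RNA, contained several silent copies that were switched on. The list was drawn by gene symbol alone, so it also holds pseudogenes such as HIST1H3PS1. Of 78 tested 11 rose and none fell. The linker histone HIST1H1B was listed at 0 with DMSO and at 164 FPKM with DAC, HIST1H4F at 0 and 77.5, and HIST1H4L at 0 and 59.1; HIST1H1B, HIST1H3I and HIST1H4L lie in 1 of the 4 runs of adjacent switched-on genes. Abundant copies had no call, such as HIST1H1C at 1277 and 1419 and HIST1H3B at 654 and 646. The summed FPKM of the list was 13957 with DMSO and 15975 with DAC. The list median of 0.29 turned to -0.32 with equal sums, and reads of near-identical copies may be shared. Replacement histones had no Cuffdiff call among 9, and 1 had an unadjusted p-value under 0.05, against 3228 of 16979 over all tested genes.

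Other gene families were examined for their known dependence on methylation. Of 178 tested zinc finger genes of chromosome 19, most of which encode KRAB repressors, 13 rose and none fell. Their median was 0.42 and turned to -0.19 with equal sums. Among all 977 tested protein-coding genes of chromosome 19, 73 were called higher (7.47%) and 1 lower, with a median of 0.76. Without GC centring the zinc finger genes thus did not stand above their chromosome. After GC centring their median was 0.65, with 149 of the 178 above 0. The median of the whole chromosome was not centred in that way, so the 2 were not compared on that scale. Most of the 13 zinc finger genes that rose started from 0 or nearly 0, such as ZNF560, listed at 0 and then at 2.26 FPKM, and ZNF256, at 0 and then 1.66. In HOX genes 2 of 23 tested fell, against 2.89% called lower over all tested genes, and none rose. They were HOXA9, from 48.7 to 18.3, and HOXA13, a gene of the hindgut, from 2.01 to 0.383. Only 4 of 53 clustered protocadherins were tested by the authors, and none was called by Cuffdiff or had an unadjusted p-value under 0.05. Of 7 tested metallothioneins 1 rose, with a list median of 1.57. MT1G, often methylated in tumours, was listed at 0 and rose to 4.67, while MT1E, at 71.5 and 176, and MT2A, at 73.6 and 134, had no call. Among 11 tested Wnt target genes 1 was called higher, against 4.56% over all tested genes. It was CCND1, which encodes cyclin D1, from 63.2 to 168 FPKM. The Wnt list median of 0.30 turned to -0.32 with equal sums and to -0.03 after GC centring.

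Proteins that bind double-stranded RNA, the class Staufen1 belongs to, had no Cuffdiff call among 11, and 2 had an unadjusted p-value under 0.05. Over all tested genes that held for 3228 of 16979. ADAR, which edits such RNA and restrains its sensing, was at 93.6 and 120.3 FPKM, DHX9 at 165 and 101, and the paralog STAU2 at 40.2 and 16.7. Of 8 factors of nonsense-mediated decay, which shares the helicase UPF1 with Staufen-mediated decay, SMG5 rose from 10.4 to 21.3 and UPF3B fell from 17.4 to 3.65. The shares over all tested genes were 4.56% called higher and 2.89% lower. UPF1 itself, at 21.4 FPKM with DAC, was not called.

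Outside the lists the largest rises among protein-coding genes that passed 1 FPKM in each group included SLC2A3, a glucose transporter, from 3.4 to 86.1 FPKM, LGALS9, the lectin galectin-9, from 1.04 to 15.8, and the immediate early genes CYR61, from 1.24 to 17.3, and JUN, from 1.45 to 18.4. LGALS9 was at 10.8 and 24.8 FPKM in siLuc cells, where it was not called. The 5 largest falls by log2 ratio in that class were in FAM133B, from 149 to 15.8, CCDC34, from 31.7 to 3.54, SAMD13, from 10.2 to 1.14, DNAJC8, a splicing-associated chaperone, from 367 to 45.8, and WNT16, a Wnt ligand, from 20.3 to 2.74. In siLuc DMSO, DNAJC8 stood at 126 and CCDC34 at 12.7 FPKM, under their siStau1 DMSO values. IFT81, an intraflagellar transport protein, fell from 15.5 to 2.87 and was not called in siLuc cells, at 5.71 and 1.97.

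Set beside the siLuc comparison, 874 of the 1266 genes called in siStau1 cells were also called there, all in the same direction. They are 69.0% of the siStau1 calls and 37.0% of the 2360 siLuc calls, of which 1524 were higher (8.71% of tested genes) and 836 lower (4.78%). The 2 comparisons use different libraries but had their q-values adjusted together by the authors. Of the 392 genes called in siStau1 cells alone, 234 were higher and 158 lower. Only 1208 of the 1266 genes were also tested in siLuc cells, so some of the 392 could not be called there. A call missing in siLuc cells does not show that the response differed, and that difference was not tested.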

How the data were processed

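Total RNA of HCT116 cells was sequenced from 8 libraries in 4 groups of 2, and 4 of them, siStau1 with DAC or DMSO, make up the comparison. Per the submitters' processing notes the tools included HISAT2 2.1.0, Cuffdiff 2.2.1 and Cuffnorm 2.2.1 with the build hg38; their roles are not stated. The authors deposited 1 FPKM value per gene and group, and the p-value and q-value of each of 6 group comparisons. The deposited q-values equal a Benjamini-Hochberg adjustment over all 102180 tests to within 5.27e-07. All 58699 gene identifiers match GENCODE release 29, from which biotype, position and transcript GC content were taken. Without values per library no test was made, and sequencing depth, and with it the precision of each value, is unknown.

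A gene is called at the authors' q-value under 0.05, and the smallest deposited p-value is 5e-05. Log2 ratios use a pseudocount of 0.1 FPKM. Genes were named by fixed rules: members of 37 lists by role, the 15 largest rises and falls, the 10 highest genes switched on or off, the 10 largest gains and losses in FPKM, and the 5 largest non-coding rises and falls; the genes of the chromosome 6 run and TKTL1's q-value were singled out after their values were seen. The lists and the comparison were chosen with earlier results of these data known. MB21D1 has no row under that symbol (the table has CGAS). Promoter content had been planned over 500 bases on each side of the gene start; no genome sequence was at hand, so RefSeq's 300-base windows (GRCh38.p14), found for 14896 of 19940 protein-coding genes, were used. The adjustment, the GC centring and the motif search were tested on simulated data. Alternatives were another q-value limit, an adjustment within the comparison, FPKM filters, other pseudocounts, scaling to equal sums and centring. The 3 libraries made with the J2 antibody were not used, since they give no DAC and DMSO pair in siStau1 cells. Python 3.11.15, pandas 2.3.3, numpy 2.4.6 and matplotlib 3.10.9 were used.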

Additional observations from a re-analysis of the deposited data

How the results depend on the processing

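At a q-value limit of 0.01, 667 genes were called, 472 higher and 195 lower. With at least 1 FPKM required in both groups, an alternative chosen after seeing the data, 807 were called, 353 of them higher. The other planned settings (adjustment within the comparison, at least 1 FPKM in either group, an absolute log2 ratio of at least 1, protein-coding genes only) left these counts within 1.5 times. The median log2 ratio of all tested genes was 0.087 with a pseudocount of 1, 0.057 after GC centring, 0.072 with at least 1 FPKM in either group, and -0.49 with equal FPKM sums. Equal sums turned 9 list medians below 0: receptors and JAK-STAT-IRF signalling -0.16, restriction factors -0.21, p53 targets -0.21, BCL2 family and death receptors -0.11, integrated stress response -0.31, Wnt targets -0.32, replication-dependent histones -0.32, chromosome 19 zinc fingers -0.19 and neural markers -0.11. GC centring turned 2, integrated stress response to -0.054 and Wnt targets to -0.031. The other pseudocounts and the median centring turned none of the 37. The pseudocount did move the size of medians over low genes by more than 1.5 times. With a pseudocount of 1 they were 3.26 for cancer-testis antigens, 1.4 for meiosis genes, 1.28 for keratins, 1.36 for chemokines, 1.61 for interferon ligands, 0.58 for protocadherins, and 1.21, 0.78 and 1.63 for leukocyte, endothelial and fibroblast markers. With 0.01 they were 6.5 for meiosis genes, 5.37 for leukocyte and 4.53 for endothelial markers. The response element core was in 2.75% of all promoters when the 250 bases before the start alone were searched. No paired analysis was possible because the table has no values per library; leaving out each replicate and the 500-base promoter windows were not run for want of such values and of a genome. Depth is unknown, so no limit of detection can be given for a gene listed at 0.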
